A study of Mus musculus with 3 samples.

Results

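The genes described here are 9 targets of fibroblast growth factor (FGF) signalling: Spry1, Spry2, Spry4, Spred1, Spred2, Dusp6, Etv4, Etv5 and Il17rd. Around them lay 38 of the 17149 peaks listed by a chromatin immunoprecipitation and sequencing (ChIP-seq) experiment for GLI3, the main transcriptional repressor of the Hedgehog (HH) pathway in the limb bud. A listed peak was taken when its summit was within 100 kb of an annotated transcription start site (TSS) of one of the genes. ChIP was done with the FLAG antibody on whole forelimb buds of mouse embryos at E10.5 (32 to 35 somites), in which the endogenous Gli3 gene carries an N-terminal FLAG tag. These mice were kept on a mixed background, and the genotype label of the libraries reads wild type. There were 2 ChIP replicates, each pooled from 2 litters, and 1 input library of chromatin that was not immunoprecipitated. All 3 libraries carry the same stage and genotype labels, so the comparison is of ChIP over input and of one group of genes with others.

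FGFs made by the apical ectodermal ridge keep the mesenchyme below it growing, and SHH from the posterior limb bud keeps the ridge producing them, so that the pathways sustain each other. A cell that receives FGF passes the signal from its receptor through RAS and the MAP kinase cascade, and the pathway switches on its own brakes and effectors. Sprouty (Spry) and Spred proteins restrain the cascade at the level of RAS and RAF, Dusp6 removes the activating phosphates from ERK, Il17rd (also called Sef) is a membrane protein that dampens receptor and ERK signalling, and Etv4 and Etv5 are ETS transcription factors that carry the FGF response and hold back Shh in the anterior limb bud. GLI3 is cut into a repressor where SHH is absent, and this repressor holds HH target genes off. Binding was measured here and expression was not, so neither the tissue nor the response of any gene to GLI3 could be checked.

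Of the 38 listed peaks, 22 had a false discovery rate (FDR) under 0.05, the threshold used by the study, and are called peaks here. This was 57.9% (95% Wilson interval 42.2 to 72.1), beside 42.5% of the whole list. The list, taken here as 1 call that joins the replicates against the input, gives no value per replicate, so no enrichment below carries a replicate error and no difference was tested. The Wilson intervals cover counting error over peaks only, and for depth the study states no more than a minimum per library, so the depth behind each value is not known exactly. Called peaks lay within 100 kb of 7 of the 9 genes, and 52.2% of 21938 protein-coding genes had one. Spry1 and Etv5 had none. Il17rd and Dusp6 had the most, and their counts were reached by few genes: 3.09% of protein-coding genes had 6 or more called peaks, as Il17rd did, and 5.21% had 5 or more, as Dusp6 did. Spry4 had 4, Spred2 had 3, Etv4 had 2, and Spry2 and Spred1 had 1 each. The count of Il17rd rests on peaks that lie close together: with called peaks less than 1 kb apart merged over the whole list, it had 2, which 27.7% of protein-coding genes reached. Under the same merging Dusp6 kept a count of 5 (3.34% of genes), and Spry4 had 3 (14.2%). These merged counts per gene were added after seeing the data.

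**Figure D1:**
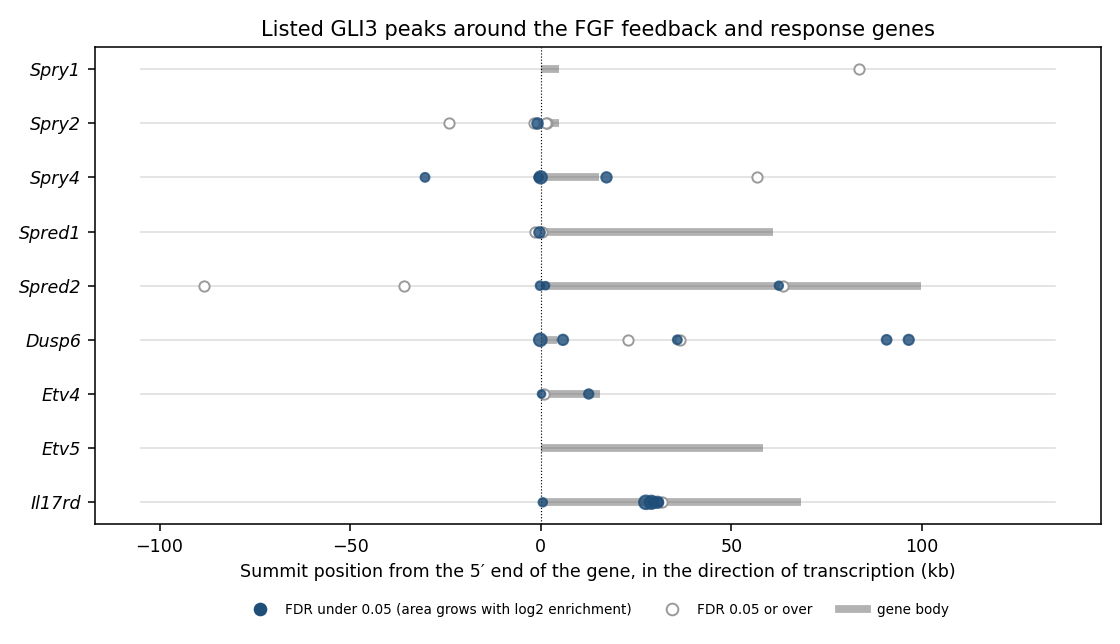
Position of the summit of each of the 38 listed peaks from the 5′ end of its gene, in kb along the direction of transcription, with filled points for the 22 called peaks, open points for the other 16 and grey bars for the gene bodies. Each of the 7 genes with a called peak has 1 near its 5′ end, and the peaks of Dusp6 run on to 96.5 kb downstream. Those of Il17rd all sit inside the gene, while the Spry1 row holds 1 open point and the Etv5 row none.

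The sequences under the summits are shown first, because DNA-bound GLI proteins recognise the 9-letter consensus GACCACCCA. It was searched on both strands, with at most 1 mismatch, up to 250 bp to either side of each summit. Of the 22 called peaks 4 held a match, which was 18.2% (7.31 to 38.5), beside 20.8% of all called peaks. Windows of the same length 2 kb to either side of the same summits held a match in 5 of 44 (11.4%), but 2 of these were matches inside neighbouring peaks of Il17rd. Windows 5 kb away, an alternative added after seeing the data, held one in 2 of 44 (4.55%). Over all called peaks the share was 10.7% at either distance. The exact consensus was in 0 of the 22 windows (Wilson interval up to 14.9%), beside 2.84% over all called peaks. Near these genes the share with a match was therefore close to the background of the list. Of the 4 matches 3 are printed, on the plus strand of GRCm38.p6 (mm10), with the match in capitals as it reads on that strand, because these stretches, from the summit to the match, are where GLI-like letters and GLI3 enrichment meet. All 3 matches lay on the minus strand, so the capitals are the reverse complement of the consensus orientation.
Il17rd, rank 169, chr14:27067957-27068111: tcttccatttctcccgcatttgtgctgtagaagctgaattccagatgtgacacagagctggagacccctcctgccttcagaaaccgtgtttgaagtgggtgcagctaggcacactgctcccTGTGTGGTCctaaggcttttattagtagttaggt
Dusp6, rank 3596, chr10:99299032-99299224: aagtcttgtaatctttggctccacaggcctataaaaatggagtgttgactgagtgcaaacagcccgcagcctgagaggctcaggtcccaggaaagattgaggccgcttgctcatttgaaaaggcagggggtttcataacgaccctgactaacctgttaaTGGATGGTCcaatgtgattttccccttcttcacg
Spred2, rank 4556, chr11:19986812-19986930: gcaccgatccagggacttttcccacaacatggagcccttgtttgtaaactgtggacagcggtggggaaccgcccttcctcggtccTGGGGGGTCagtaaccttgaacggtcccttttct
Read in the orientation of the consensus, the Il17rd match was GACCACACA, 100 bp from the summit, the Dusp6 match GACCATCCA, 138 bp from it, and the Spred2 match GACCCCCCA, 64 bp from it. The Dusp6 match lay at the very edge of its 250 bp peak, and the stretch printed for it runs past the end of that peak. The match of Spry4 lay 5 bp from the summit of its highest-ranked peak, which was the shortest distance of the 4.

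The highest-ranked peak of Dusp6 held no match anywhere along its 2300 bp. Its sequence is shown as the 250 bases before the RefSeq TSS on the plus strand, chr10:99262981-99263230, with the 11 bases centred on the summit in capitals.
Dusp6 promoter: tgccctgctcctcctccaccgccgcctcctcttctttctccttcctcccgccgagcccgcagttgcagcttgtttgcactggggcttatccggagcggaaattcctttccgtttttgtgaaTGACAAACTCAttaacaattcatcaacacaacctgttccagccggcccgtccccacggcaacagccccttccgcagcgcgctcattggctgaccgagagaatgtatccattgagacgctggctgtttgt
The 121 bases around the highest-ranked summits of Il17rd, Spry2 and Spred1 are shown with the same marking, because these also carried high enrichment with no match within 250 bp of the summit.
Il17rd, rank 139, chr14:27066442-27066562: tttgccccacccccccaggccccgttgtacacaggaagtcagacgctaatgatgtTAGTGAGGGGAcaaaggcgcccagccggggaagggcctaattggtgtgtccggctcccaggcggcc
Spry2, rank 1380, chr14:105897762-105897882: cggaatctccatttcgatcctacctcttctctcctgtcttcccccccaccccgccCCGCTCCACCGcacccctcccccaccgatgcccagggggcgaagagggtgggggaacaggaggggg
Spred1, rank 1398, chr2:117120807-117120927: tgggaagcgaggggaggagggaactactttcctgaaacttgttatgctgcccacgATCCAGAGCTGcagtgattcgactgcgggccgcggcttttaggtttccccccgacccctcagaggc
The Il17rd peak did hold a match farther out, 420 bp from its summit, so that 5 of the 22 called peaks held one when the whole peak was searched. The Spred1 summit lay in the most GC-rich of the called windows (71.1% GC). RefSeq promoters, taken as 250 bases before to 50 after the TSS, were at hand for 7 of the 9 genes, and not for Spry4 and Etv4. In these 8 promoters the GLI consensus with at most 1 mismatch was found in 0, beside 6.74% of 32851 RefSeq promoters, and the ETS motif CCGGAAG in 0, beside 8.86%. The count of 0 leaves out the Spry4 match, which lay 5 bp from a summit 17 bp upstream of the GENCODE TSS.

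Il17rd (chr14:27038941-27107286, plus strand) carried the strongest enrichment of the 9 genes. Its highest-ranked peak was number 139 of the list, ordered by the authors' T score, with a log2 fold enrichment over input of 4.25 (19.1-fold). Another, number 169, had a log2 fold enrichment of 4.15, and its −log10 Poisson p-value stood at the limit of 100, which 96 of the listed peaks reached. Both lay inside the gene and not at its 5′ end: 5 of the 6 called peaks fell within 4.8 kb (chr14:27065350-27070149), with summits 27.6 to 31.1 kb from the 5′ end. The other members of this cluster had log2 fold enrichments of 3.39 (rank 952), 2.63 (rank 4110) and 2.36 (rank 6644). With 2 further listed peaks that were not called, the cluster reached 5.5 kb, of which the 7 peaks covered 3700 bp. The cluster surrounds the start of a short protein-coding transcript, Il17rd-205, which GENCODE M21 places 28.5 kb inside the gene. The RefSeq promoter used here for Il17rd is that of the 5′ end, so the promoter label of the cluster rests on the GENCODE transcript. The remaining called peak lay 216 bp inside the gene from the TSS of Il17rd-203, in the first part of the gene, with a log2 fold enrichment of 2.58 (rank 4407). Thus the peak at the 5′ end of Il17rd was weaker than 4 of the 5 internal ones. Each of the 5 internal summits lay in an intron.

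Dusp6 (chr10:99263231-99267489, plus strand) was next in rank. A peak of 2300 bp, the longest of the 22, had its summit 124 bp upstream of the TSS, with a log2 fold enrichment of 3.93 (15.2-fold, rank 296). Downstream of the gene lay 4 further called peaks, all of lower enrichment. The nearest, 5.81 kb from the TSS, had a log2 fold enrichment of 3.11 (rank 1636). A peak 35.8 kb downstream had 2.70 (rank 3596) and is the one with a GLI match. The remaining pair lay 90.7 kb and 96.5 kb downstream, with log2 fold enrichments of 2.92 (rank 2412) and 3.07 (rank 1740). The last 3 summits fell in exons or an intron of the non-coding gene B530045E10Rik and the nearest of the 4 in an intron of the non-coding gene Gm34921. No other protein-coding gene has a TSS within 100 kb of Dusp6, and each of these peaks had Dusp6 as its nearest protein-coding gene. The distal peaks were thus spread over nearly the whole 100 kb downstream of the TSS, with none upstream, unlike those of Il17rd, which were packed together.

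**Figure D2:**
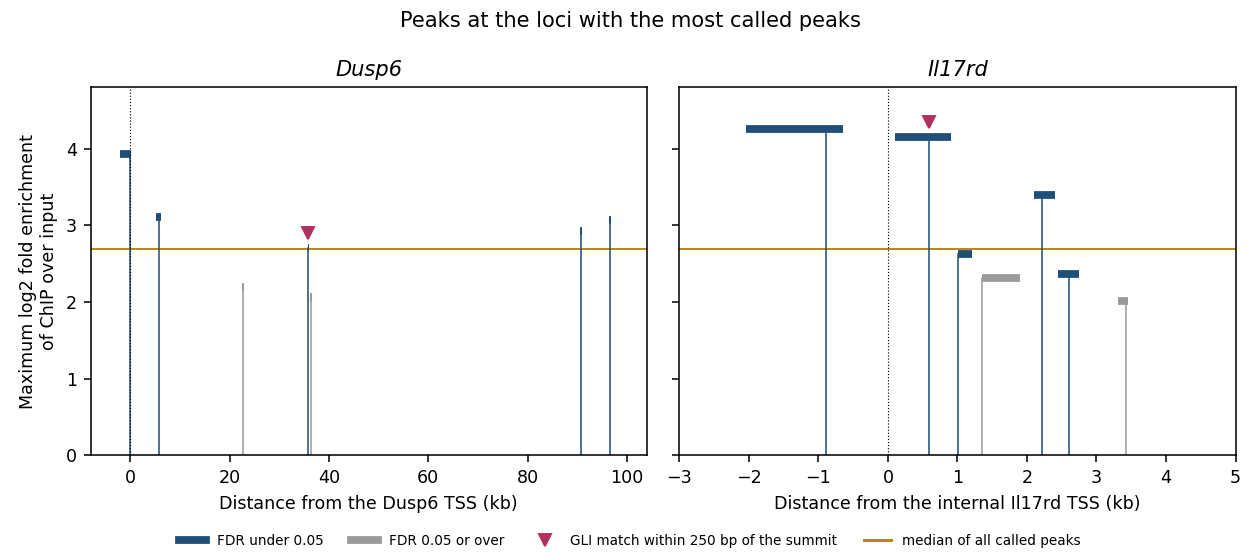
Log2 fold enrichment over input (height) of each listed peak at Dusp6 and in the Il17rd cluster, against distance in kb from the Dusp6 TSS and from the internal Il17rd TSS, with horizontal bars for the extent of a peak, thin lines for its summit and triangles for peaks with a GLI match within 250 bp of the summit. Enrichment is highest at the Dusp6 promoter (3.93) and in the 2 peaks either side of the internal Il17rd TSS (4.25 and 4.15), and the horizontal line gives the median of all called peaks (2.69).

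Among the Sprouty genes Spry4 (chr18:38586247-38601415, minus strand) was the most highly ranked. Its first peak, with the summit 17 bp upstream of the TSS, had a log2 fold enrichment of 3.80 (13.9-fold, rank 395), and another promoter peak lay 562 bp upstream with a log2 fold enrichment of 2.65 (rank 3950). A peak 17.2 kb downstream of the TSS, past the end of the gene, had a log2 fold enrichment of 3.12 (rank 1593), and one 30.4 kb upstream, in an intron of the non-coding gene AC133601.1, had 2.68 (rank 3740). Spry4 thus had called peaks at the promoter and on both sides of the gene. Spry2 (chr14:105891947-105896819, minus strand) had a single called peak, of 1450 bp, with its summit 1003 bp upstream of the TSS, and its log2 fold enrichment was 3.19 (rank 1380). The other 4 listed peaks of Spry2 were enriched 3.73- to 4.6-fold over input and were not called. Spry1 (chr3:37639947-37644598, plus strand) had no called peak. The 1 peak listed within 100 kb of it had an FDR of 1 and a log2 fold enrichment of 1.86 (rank 15594), and it lay 83.4 kb downstream, 862 bp from the TSS of another gene, Gm5148. The nearest called peak to Spry1 was 335 kb away (rank 2587, log2 fold enrichment 2.87). The 3 Sprouty genes therefore ranged from 4 called peaks to 0, although their proteins have similar roles.

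The Spred genes had called peaks at their promoters. Spred1 (chr2:117121374-117182279, plus strand) had 1, with its summit 507 bp upstream of the GENCODE TSS (204 bp upstream of the RefSeq TSS) and a log2 fold enrichment of 3.18 (rank 1398). Spred2 (chr11:19924375-20024026, plus strand) had 3, all of lower enrichment. Its promoter peak, 198 bp upstream, had a log2 fold enrichment of 2.62 (rank 4165), a peak 1.18 kb downstream of the TSS had 2.37 (rank 6642), and one in an intron 62.4 kb downstream, the one with a GLI match, had 2.57 (rank 4556). None of the Spred2 peaks reached the median of all called peaks (2.69). A listed peak 1130 bp from this intronic summit had a GLI match too, and with an FDR of 0.0704 it was just over the threshold. Spred2 thus had more called peaks than Spred1, and weaker ones.

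Of the ETS factors Etv4 (chr11:101769742-101785371, minus strand) had called peaks and Etv5 (chr16:22381309-22439719, minus strand) had none. The higher-ranked peak of Etv4 lay in an intron 12.5 kb downstream of the TSS, with a log2 fold enrichment of 2.82 (rank 2831), and the other, 138 bp downstream of the start of transcript Etv4-212 and in the 5′ UTR, had 2.38 (rank 6470). Around Etv5 not a single peak was listed within 100 kb. The nearest listed one was 174 kb away with an FDR of 1, and the nearest called one was 273 kb away, 47 bp from a TSS of Igf2bp2, with a log2 fold enrichment of 2.49 (rank 5277). No other protein-coding gene has a TSS within 100 kb of Etv5, and 47.8% of all protein-coding genes likewise had no called peak. A gene with no listed peak may still be bound below what these libraries could detect.

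**Figure D3:**
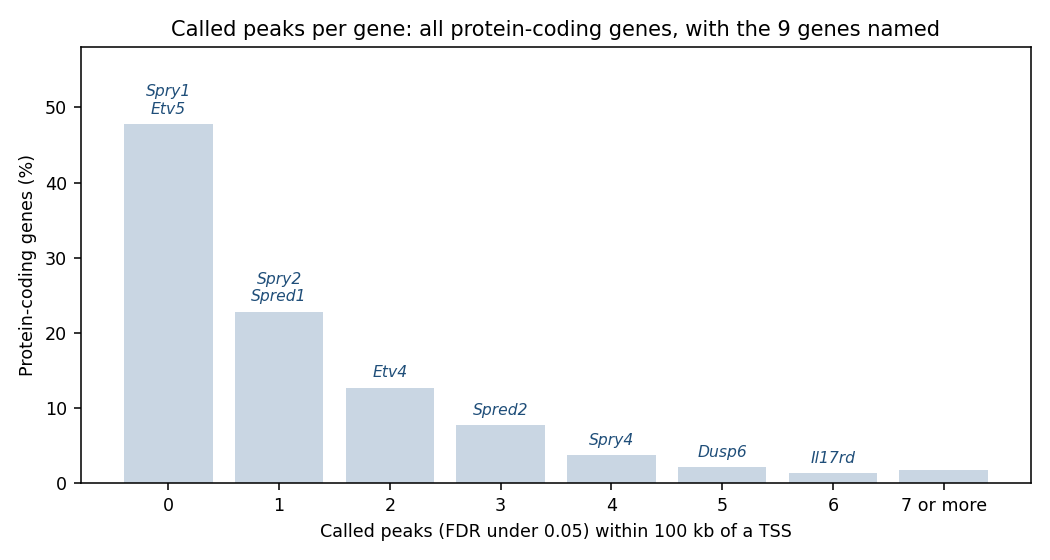
Percent of the 21938 protein-coding genes (bars) with each number of called peaks within 100 kb of a TSS, with the 9 genes named above the bar of their own count. The 9 genes span the counts from 0 (Spry1 and Etv5) to 6 (Il17rd), and the last bar, 7 or more, holds none of them.

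Over the 7 genes, the median log2 fold enrichment of the called peaks was 2.87 (quartiles 2.62 and 3.19, range 2.36 to 4.25), beside 2.69 (2.47 and 3.06) for all 7282 called peaks. This difference was not tested, and it rests on Dusp6, without whose peaks the median was 2.68. In the upper 25% of called peaks by rank were 10 of the 22 (45.5%), and 5 (22.7%) were in the first 1000 peaks, beside 13.7% of all called peaks. An FDR under 0.01 was listed for 19 (86.4%), beside 68.1% over all called peaks. They were also longer, with a median of 525 bp beside 400 bp, and lower in GC, with a median of 54.8% beside 58.7%. The authors' enrichment is the largest value among the windows of a peak, and the part that peak length plays in it was not tested. The 5 peaks in the first 1000 were 3 of Il17rd and the first-ranked ones of Dusp6 and Spry4.

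**Figure D4:**
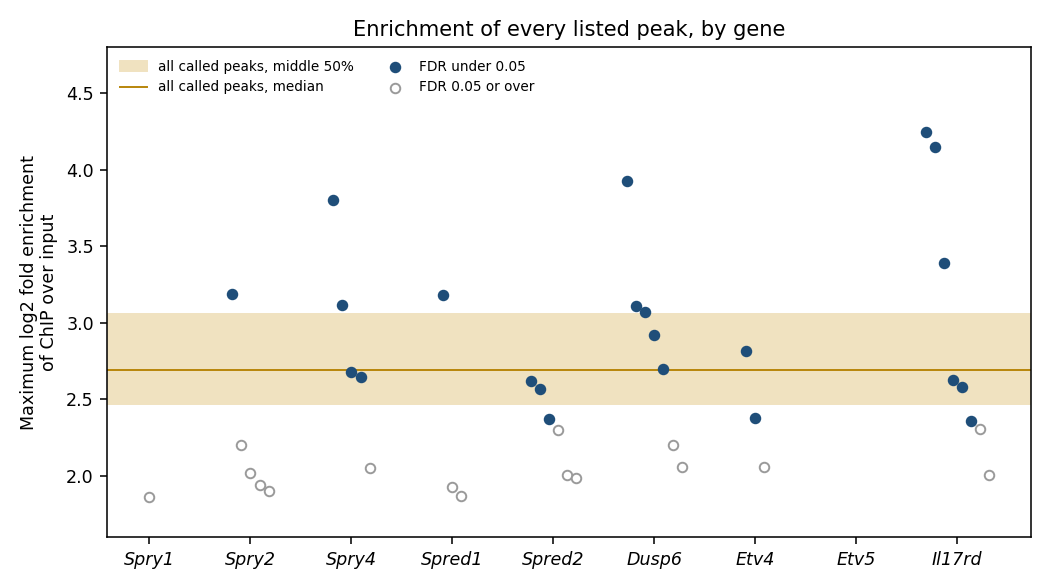
Log2 fold enrichment over input of every listed peak, ordered by rank within each gene, with filled points for the 22 called peaks, open points for the 16 others, a line at the median of all 7282 called peaks (2.69) and a band over their middle 50% (2.47 to 3.06). The first peaks of Il17rd, Dusp6 and Spry4 lie well above the band, the called peaks of Spred2 lie at or below the line, and no point stands above Etv5.

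Promoters, taken as 2 kb before to 1 kb after a TSS, were overlapped by 11 of the 22 called peaks, or 50% (30.7 to 69.3), beside 52.6% of all called peaks. Each of the 7 genes had at least 1. Without the 2 peaks that count through the internal Il17rd start there were 9 (40.9%). By distance, 9 summits (40.9%) lay within 1 kb of a TSS of the gene, 6 at 1 to 10 kb and 7 farther out. A protein-coding TSS lay within 1 kb of the summit in 49.5% of all called peaks. Of the 22 summits 14 were downstream of the TSS. All 22 had the gene itself as the nearest protein-coding TSS. Over all called peaks, 23.8% of the 26451 pairs of a peak and a protein-coding gene within 100 kb were of that kind. The loci are sparse, however: within 100 kb of each of the 9 genes were the TSSs of 0 to 3 other protein-coding genes, with Hesx1, Appl1 and Arhgef3 near Il17rd, Arhgap26 near Spry4, Dhx8 near Etv4 and Gm5148 near Spry1, and the median over all protein-coding genes was 3.

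Other motifs were searched, exactly and on both strands, in the same windows. The AP-1 motif TGANTCA, which FOS and JUN proteins bind and which ERK signalling acts through, was in 3 of the 22 windows (13.6%, 4.75 to 33.3), beside 7.62% of all called peaks. All 3 were distal peaks, 3 of 11 (27.3%, 9.75 to 56.6), beside 10.9% of all distal called peaks. The interval holds the share over all distal called peaks. The ETS motif CCGGAAG, the kind of site that Etv4 and Etv5 recognise, was in 3 (13.6%), beside 12.7%, the TCF/LEF motif CTTTGAT in 1 (4.55%), beside 6.62%, and the CRE motif TGACGTCA in 0 (interval up to 14.9%), beside 2.1%. The Dusp6 peak 90.7 kb downstream held an ETS and an AP-1 match close together, and 2 peaks of the Il17rd cluster held AP-1 matches. These stretches are shown because they are the only windows with an AP-1 match, on the plus strand with the matches in capitals.
Dusp6, rank 2412, chr10:99354053-99354137: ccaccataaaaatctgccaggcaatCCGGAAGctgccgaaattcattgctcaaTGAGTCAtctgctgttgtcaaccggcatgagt
Il17rd, rank 952, chr14:27069629-27069685: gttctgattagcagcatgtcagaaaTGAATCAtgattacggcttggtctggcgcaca
Il17rd, rank 6644, chr14:27069922-27069978: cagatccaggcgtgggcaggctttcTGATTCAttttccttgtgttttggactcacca
The AP-1 matches lay 147 bp, 50 bp and 52 bp from their summits.

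The 16 listed peaks that were not called had log2 fold enrichments of 1.86 to 2.31 and ranks of 7308 to 15594. Of these, 8 lay within 2 kb of a called summit of the same gene, and 2 held a GLI match, both at Spred2. Just inside the limit of 100 kb lay the Dusp6 peak at 96.5 kb (rank 1740), and outside it lay, among others, an uncalled peak of Spred1 at 102 kb (rank 15061), a called peak 111 kb from Spry4 (rank 4491) whose nearest gene is Arhgap26, and a called peak 112 kb from Dusp6 (rank 3465, log2 fold enrichment 2.72). The last of these had Dusp6 as its nearest protein-coding gene. A peak with a higher log2 fold enrichment, 3.99 (rank 254), lay 149 kb from Spred1, and its nearest protein-coding gene was Tmco5.

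The rest of the FGF pathway was described with the same counts, which take any peak within 100 kb whatever gene is nearest to it. Of 12 FGF ligand and receptor genes 11 had a called peak, with 33 called peaks in all, but in 14 of these (42.4%) the nearest protein-coding gene was of the list. Fgfr2, a receptor that the limb bud needs for ridge signalling, had 6, the most of this list, and 1 of them, 7 bp from its TSS, had Fgfr2 as the nearest gene. The highest-ranked peak of the list (rank 159, log2 fold enrichment 4.17) was 6.55 kb from Fgf17, one of the ridge FGFs, and 271 bp from the TSS of Dmtn. Of 21 genes that relay the signal from the receptor to MAP kinase 16 had a called peak within 100 kb, with 37 called peaks, of which 11 (29.7%) had a gene of the list as the nearest. Frs3 and Shc1, adaptors at the receptor, and Map2k2, a kinase that activates ERK, had 5 each, and of these none had Frs3, Shc1 or Map2k2 as its nearest gene. The highest-ranked of the relay peaks (rank 509) was 80.7 kb from Shc1 and 326 bp from the TSS of Efna4. For the 9 genes, whose loci are sparse, all 22 called peaks had one of them as the nearest gene. Some single genes of the other lists, such as Fgf9 and Fgf10 (3 of 3 each), were likewise the nearest to all their called peaks. Others, such as Fgfr2, were not, and this difference was not tested. A promoter of any gene was overlapped by 86.5% of the relay peaks and 72.7% of the ligand and receptor peaks, and by 50% of those of the 9 genes. Among the peaks whose nearest gene was of the list, promoters were overlapped by 9 of 11 (81.8%), 9 of 14 (64.3%) and 11 of 22 (50%). These shares were not tested against each other. Among 14 relatives of the 9 genes (Spred3, other Dusp genes, Etv1 and other Il17 receptor genes) 8 had a called peak, but 3 of them, Dusp1, Dusp4 and Dusp7, had one with the gene itself as the nearest, and 5 of the 13 called peaks (38.5%) had a gene of the list as the nearest. Dusp7, like Dusp6 a phosphatase that acts on ERK, had 5 of the 13, including the highest-ranked (rank 257, log2 fold enrichment 3.99), which was 12.2 kb from its TSS and was 1 of 2 with Dusp7 as the nearest gene. Etv1, of the same ETS subfamily as Etv4 and Etv5, had 0.

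Feedback genes of other pathways give the scale. Of 7 Hedgehog feedback genes each had a called peak, led by Ptch1, the SHH receptor that the pathway itself induces, with 7 called peaks and rank 2 (log2 fold enrichment 6.05), and 36% of their 25 called peaks held a GLI match. Of 10 Wnt feedback genes 7 had one, with 23 called peaks, of which 4.35% held a GLI match. Notum, a secreted Wnt inhibitor, had 7, none with Notum as the nearest gene, and the highest-ranked was 7 bp from the TSS of Axin2 (rank 483). Of 9 BMP feedback genes 8 had one, with 45 called peaks, of which 31.1% held a GLI match. Id3, a target of BMP signalling, had 9, and the highest-ranked was 36.3 kb from Smad6, an inhibitor of BMP signalling and the nearest gene (rank 182). Beside these shares, a GLI match was held by 18.2% of the called peaks of the 9 genes and 20.8% of all called peaks. In the other lists the share was 6.06% for ligands and receptors, 21.6% for the relay and 15.4% for the relatives. Median log2 fold enrichments of the called peaks ranged from 2.74 to 3.02 over the 7 lists, with 2.87 for the 9 genes. They were 3.02 for the relatives, 2.78 for ligands and receptors, 2.74 for the relay, 2.79 for Hedgehog feedback, 2.80 for Wnt and 2.79 for BMP. Called peaks per gene averaged 2.44 for the 9 genes, 3.57 for Hedgehog, 2.3 for Wnt and 5 for BMP. The average was 2.75 for ligands and receptors, 1.76 for the relay, 1.07 for the relatives and 1.21 over all protein-coding genes. All these averages count peaks that lie close together singly, as in the 6 of Il17rd. These differences were not tested, since peaks near one gene share its locus and genes near each other share peaks. The nearest gene was of the list for 72% of the Hedgehog, 56.5% of the Wnt and 73.3% of the BMP feedback peaks.

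**Figure D5:**
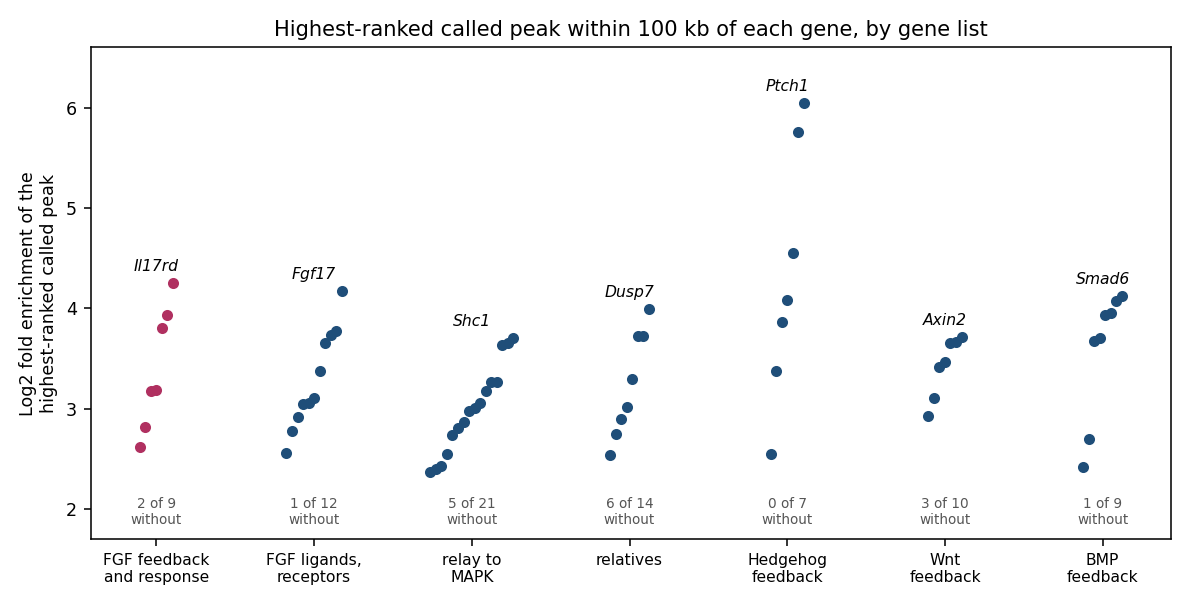
Log2 fold enrichment over input of the highest-ranked called peak within 100 kb of each gene, 1 point per gene, for the 9 FGF feedback and response genes and 6 comparison lists, with the leading gene named and the number of genes without a called peak below. Il17rd leads the 9 genes at 4.25, near the leading genes Fgf17 (4.17, a peak at the promoter of Dmtn) and Smad6 (4.12) of other lists and below Ptch1 (6.05).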

How the data were processed

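GLI3 was measured by ChIP-seq in 2 FLAG ChIP replicates with 1 input, each library amplified with 15 PCR cycles. Reads were aligned to mm10 with Bowtie2 2.2.5 per the submitters' processing notes, and peaks were called by the authors with CisGenome from both replicates. Per peak, the deposited values are an FDR (q-value), the authors' maximum log2 fold enrichment over input, a T score by which the authors ranked the peaks, and −log10 of the lowest Poisson p. The list was treated as a joint call, although it is attached to 1 replicate.

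A peak was called at an FDR under 0.05. TSSs were those of the GENCODE M21 basic transcripts. Motifs were searched within 250 bp of the summit (pysam 0.24.0, pandas 2.3.3, Python 3.11.15). The authors' values were used as given, with no pseudocount. The assignment and motif search were tested on simulated data. The genes, comparison lists and motifs were chosen with earlier results of these data known, so all comparisons are descriptions. Named were the 9 genes with every called peak, the nearest protein-coding gene of each, and from each comparison list the genes with the most called peaks and the gene of the highest-ranked peak. Uncalled peaks were given by counts and ranges, apart from the one of Spry1. The named peaks beyond 100 kb, the uncalled Spred2 peaks, Etv1, and the nearest genes of peaks in the comparison lists were added after their values were seen.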

Additional observations from a re-analysis of the deposited data

How the results depend on the processing

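Over 7 results 95 alternatives were run, and 90 stayed within 1.5 times the reported count or inside the 95% interval of the reported value. The alternatives covered an FDR under 0.01, distances of 50, 200 and 500 kb, other promoter and motif windows and another transcript set. Leaving out 1 gene at a time (45 alternatives) moved 0 results by that measure, but without Dusp6 the median log2 fold enrichment was 2.68, no higher than that of all called peaks (2.69). The alternatives without Spry1 or Etv5 could not move, because these genes have no called peak. With the whole match required to lie within 100 bp of the summit (distances above are to the middle of a match), the share with a GLI match was 9.09% in place of 18.2%, still inside its interval. The median log2 fold enrichment fell to 2.48 when the uncalled peaks were included, which follows from adding weaker peaks. Within 200 kb there were 64 listed peaks, and within 500 kb, a distance chosen after seeing the data, 59 called ones. Merging peaks less than 1 kb apart left 24 of the 38 listed peaks (17 of the 22 called), and Il17rd then had 2 called peaks in place of 6. With the exact GLI consensus the share with a match was 0% (Wilson interval up to 14.9%). No paired analysis was possible because the 1 peak list holds nothing per replicate, and no replicate could be left out. Read depth limits which peaks could be listed, and only a minimum is stated for it.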
